A study of Mus musculus with 32 samples.

Results

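The genes described here encode the proteins of the cytosolic ribosome. They were chosen by name, as rows of the deposited table that are annotated protein coding and named Rpl or Rps and a digit, or Rplp0, Rplp1, Rplp2 or Rpsa, leaving out the Rps6k kinases and rows with a pseudogene suffix. The rule gave 86 of 54532 rows. They comprised 52 genes of the large subunit and its stalk, 33 of the small subunit, and Rps19bp1, which the rule takes in by its name and which encodes a protein that binds Rps19 and is not part of the ribosome. Of these, 84 passed the filter on low counts and were tested among 17121 genes. Rpl10l had no counts and Rpl39l had 41 counts over all libraries, so both were left out of the tests.

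The study measured messenger RNA in the tibialis anterior, a hindlimb muscle of fast fibres, of young and old C57BL/6J mice. The 8 groups of 4 libraries each were young and old mice without BaCl injury, whose libraries the labels and the table name PBS, young and old mice 7 days and 35 days after injury with BaCl, a barium salt that kills muscle fibres and is followed by regeneration, and old mice given BI01 and taken at day 7 or day 35 after the same injury. The other 6 groups received vehicle, and the labels give no ages in months. The labels call BI01 a senolytic, an agent meant to remove senescent cells, and the title of the series speaks of inhibited binding between p53 and MDM2. The table's library numbers could be tied to a group but not to single samples, so libraries are named here by group and table number. Separate mice are not stated for the libraries, so p-values measure the spread between these libraries. The table's headers give the uninjured libraries the name of the day 35 set, and the uninjured and day 35 columns of an age carry the same 4 numbers, but nothing in the labels says whether these are muscles of the same mice. The uninjured libraries have no day 7 counterpart, so that injury and collection set cannot be told apart in the comparisons of day 7 with uninjured muscle.

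A ribosome has a small subunit that reads the messenger RNA and a large subunit that forms the peptide bonds, and each protein occurs once per ribosome, apart from the acidic stalk proteins. The messenger RNAs of most ribosomal proteins begin with a run of C and T bases, the terminal oligopyrimidine motif, through which growth signals control their translation together. Some proteins have a paralog that takes the same place in the ribosome. The best known in muscle is Rpl3l, which is made in striated muscle in place of Rpl3, a protein next to the peptidyl transferase centre. Rpl5, Rpl11, Rpl23 and Rps7 are known to bind MDM2 when they are free of the ribosome, and Rps27l, a paralog of Rps27, is a known transcriptional target of p53.

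The first bases of the transcripts are shown for a few core members and paralogs, because the start is where the shared motif of this gene group lies. Each window holds 15 bases before and 15 bases from the RefSeq start (GRCm38.p6, the build that mm10 names), 5′ to 3′, with the longest run of C and T in capitals. Where RefSeq lists more than 1 start, the outermost is shown. Rps6 and Rplp2 stand for the core proteins, Rps27 with Rps27l and Rpl22 with Rpl22l1 are paralog pairs, and Rpl3l is the muscle paralog of Rpl3.
Rps6, chr4:86857353-86857382, minus strand: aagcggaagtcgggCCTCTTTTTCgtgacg
Rplp2, chr7:141447636-141447665, plus strand: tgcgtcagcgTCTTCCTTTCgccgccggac
Rps27, chr3:90213634-90213663, minus strand: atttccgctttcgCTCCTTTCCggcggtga
Rps27l, chr9:66946071-66946100, plus strand: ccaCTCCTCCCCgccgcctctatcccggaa
Rpl22, chr4:152324421-152324450, plus strand: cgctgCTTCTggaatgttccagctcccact
Rpl22l1, chr3:28805493-28805522, plus strand: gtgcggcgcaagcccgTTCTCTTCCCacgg
Rpl3l, chr17:24727811-24727840, plus strand: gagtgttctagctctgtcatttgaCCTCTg
The run spans the start in Rps6, Rplp2 and Rps27. It lies before the start in Rps27l and Rpl22 and begins after it in Rpl22l1 and Rpl3l. Rpl22 has another run of the same length after the start, and the first of equal runs is marked. In both Rpl22 and Rpl3l the longest run is 5 bases. RefSeq promoter entries matched 66 of the 86 members by symbol. A run of at least 7 C or T bases, read on the transcribed strand, lay within 15 bases of a start in 34 of these 66 (51.5%) and in 22.4% of the 11906 genes tested that had an entry. These are matches of letters and do not show how a messenger RNA is controlled.

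Library totals ranged from 14129350 to 30439358 counts. All 10 markers of mature fast fibres (among them Ckm, Acta1 and Myh4) were detected in every group, and their summed level ranged from 12062 CPM (counts per 1000000 counts, scaled by the trimmed mean of M values, TMM) in library 7 of old mice at day 7 to 331193 CPM in library 4 of uninjured young mice. A pair of libraries stood apart among the members: library 3 of uninjured young mice was the lowest of all 32 in ribosomal protein counts, and library 7 of uninjured old mice was the highest of its group, with a summed level of 1211 CPM for the 6 regenerating fibre markers, against a lowest of 99.8 CPM in that group.

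Ribosomal protein genes took 0.446% to 0.808% of all counts in the 4 uninjured young libraries. In uninjured old mice the share was 1.02% to 1.26%. At day 7 it was 1.24% to 2.02% in young mice, 1.54% to 3.38% in old mice on vehicle and 2.26% to 3.30% in old mice on BI01. At day 35 the 3 groups lay between 0.860% and 1.26%. Every day 7 library of young mice was thus above every uninjured young library, every day 7 library of old mice was above every uninjured old library, and the day 35 libraries of old mice overlapped the uninjured ones. In these samples of whole muscle, fewer cells of a type and less RNA per cell cannot be told apart.

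The share of counts also moves with what else a library holds, since mature muscle has few, very abundant messenger RNAs. The 10 most abundant rows took 27.5% to 31.8% of counts in uninjured young mice and 15.7% to 22.7% at day 7. TMM scaling, which is used for every level and test below, is meant to adjust for this, and how fully it does so at day 7 was not tested. On that scale the summed level of the members was 9806 ± 2393 CPM (SD, n = 4) in uninjured young mice, 13086.5 ± 1243 at day 7 and 12147 ± 1187 at day 35. In old mice on vehicle it was 13696 ± 1098 CPM uninjured, 14644 ± 3482 at day 7 and 12755 ± 1011 at day 35. With BI01 it was 17755 ± 1875 CPM at day 7 and 12720 ± 2230 at day 35. The uninjured young group had the lowest mean and the BI01 day 7 group the highest.

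**Figure D1:**
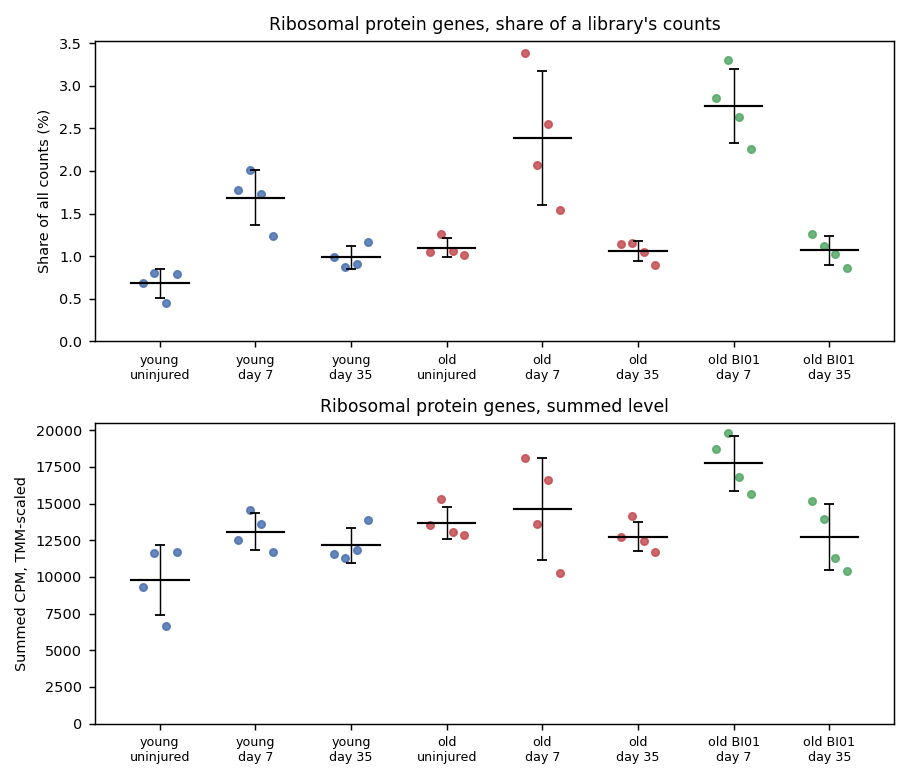
Share of a library's counts in the 86 ribosomal protein genes (upper, percent) and their summed level (lower, TMM-scaled CPM) in the 8 groups; points are libraries, horizontal bars the mean and vertical bars ± 1 SD, with young vehicle in blue, old vehicle in red and old BI01 in green. The share ranged from 0.446% to 3.38%, and the groups lie closer together in the lower panel.

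Levels per length differed widely among the members. Averaged over all 32 libraries, Rplp1 and Rplp0, which form the stalk that recruits elongation factors, stood highest at 539 and 450 CPM per kilobase of the deposited gene length. Rpl4 followed at 321 and Rps3a1 at 320 CPM per kilobase. This order differed between groups: Rplp0 stood above Rplp1 in young mice at day 7 (495 and 439), and at day 35 Rpl3l was level with Rplp0 in young mice (382 and 380.1, within their spread) and next below it in old mice with vehicle (399) and with BI01 (382). At the other end Rpl36al, Rpl24 and Rps10 were below 0.4 CPM per kilobase (0.286, 0.349 and 0.361), and Rpl13a was at 2.89. Processed pseudogenes of ribosomal proteins are also rows of the table: 229 of 394 such rows had counts, and they held on average 3.45% to 4.07% of the counts of members and pseudogenes together in the 8 groups. Rps10-ps2 alone averaged 36.1 CPM in uninjured young mice, where Rps10 ranged from 0.309 to 0.644 CPM. How reads were assigned between near-identical copies is not given in the sources used here, and the levels of Rps10, Rpl13a, Rpl24, Rpl17, Rpl21, Rps27 and Rpl36al are therefore uncertain.

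Across the 32 libraries the members varied together. The median Pearson r of a member's log2 CPM with the mean of the tested members was 0.860, and 51 of 84 had r above 0.8, a description over libraries that share groups and depth. Rpl3l had the lowest r, at -0.41. By the same measure the 5 other genes most like the member mean, out of 9810 compared, were Akr1a1 (r = 0.907), Pkig (0.900), Tspo (0.889), Myl6 (0.883) and Ap2s1 (0.881).

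The paralog pair Rpl3 and Rpl3l is described first. Rpl3l lies at chr17:24727820-24736143 (plus strand) and Rpl3 at chr15:80077791-80091868 (minus strand) in the table's coordinates. The longest stretch of bases shared by any of their annotated transcripts (GENCODE vM39) is 22 bases. Rpl3l was at 291, 460, 299 and 521 CPM in the 4 uninjured young libraries and at 74.9, 105, 104 and 222 CPM at day 7. In uninjured old mice it was at 543, 418, 462 and 500 CPM, and at day 7 at 3.93, 32.4, 51.8 and 29.4 CPM. Injured and uninjured libraries did not overlap at either age, and the 4 old day 7 libraries were all below the 4 young ones. Old mice on BI01 had 20.0, 13.4, 43.1 and 75.9 CPM at day 7, which overlaps the old vehicle group and, in 1 library, the lowest young one. At day 35 the 12 libraries of the 3 groups lay between 615 and 667 CPM, above every uninjured library.

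Rpl3l fell at day 7 in young mice by 1.64 on the log2 scale (SE 0.46, 95% interval -2.58 to -0.69, adjusted p = 0.00329, edgeR quasi-likelihood test) and in old mice by 4.03 (SE 0.51, -5.08 to -2.99, adjusted p = 9.43e-08). The difference between old and young mice at day 7 was -2.11 (-3.07 to -1.14, adjusted p = 0.0206), and the fall was larger in old than in young mice by 2.40 (-3.73 to -1.07, adjusted p = 0.0233). Both of these age differences were no longer called without library 7 of young mice at day 7 (adjusted p = 0.177 and 0.0787), with no filter on low counts (0.0531 and 0.0609) or with only the groups compared in the fit (0.342 and 0.0837). The first also lost its call without library 7 of old mice at day 7 (-1.74, adjusted p = 0.0541), and the second without library 1 (0.0605) or 3 (0.0641) of uninjured young mice. With scaling to library size alone the fall in young mice was -0.82 (adjusted p = 0.0798). At day 35 Rpl3l was 0.68 above uninjured in young (adjusted p = 0.327) and 0.45 in old mice (adjusted p = 0.699), and neither passed the test. Fitted on its 2 groups alone, the old difference was called (0.45, adjusted p = 0.00336).

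Rpl3 moved the other way. It was at 53.4, 44.0, 52.0 and 45.1 CPM in uninjured young mice and at 346, 323, 306 and 200 CPM at day 7. In old mice it went from 44.2, 90.0, 42.7 and 48.8 CPM uninjured to 439, 389, 295 and 319 CPM. Every day 7 library was above every uninjured library at both ages. The rise was 2.59 (SE 0.26, adjusted p = 6.64e-10) in young and 2.67 (SE 0.26, adjusted p = 3.04e-10) in old mice, the largest rise of any tested member in both comparisons, and the difference between the 2 rises was 0.08 (95% interval -0.62 to 0.78, adjusted p = 0.927). With BI01 Rpl3 was at 436, 519, 311 and 267 CPM at day 7. It was back at 49.5 to 68.9 CPM at day 35 in young mice, at 57.6 to 111 CPM in old mice and at 43.5 to 79.5 CPM with BI01.

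**Figure D2:**
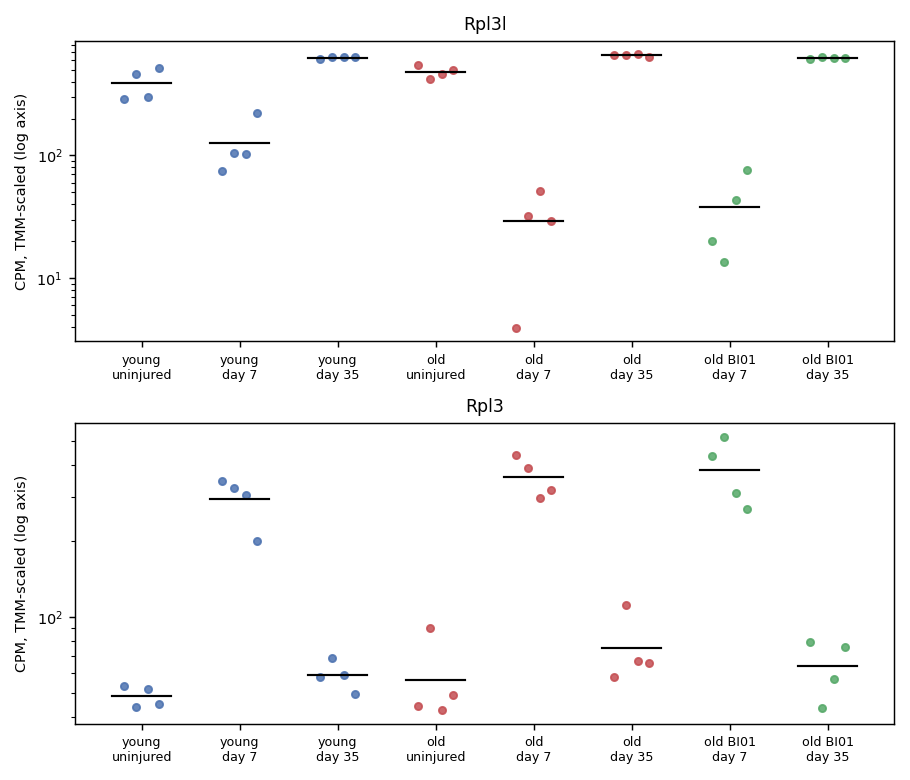
Level of Rpl3l (upper) and Rpl3 (lower) in every library, in TMM-scaled CPM on a log axis; horizontal bars are group means (n = 4), with young vehicle in blue, old vehicle in red and old BI01 in green. At day 7 Rpl3l was at 3.93 to 222 CPM and Rpl3 at 200 to 519 CPM, and at day 35 all 12 libraries had 615 to 667 CPM of Rpl3l.

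Expressed per length as a share of the pair, Rpl3l made up 93.5% ± 2.30 (SD, n = 4) in uninjured young mice and 44.0% ± 16.8 at day 7. In old mice it made up 94.1% ± 2.80 uninjured and 13.997% ± 9.67 at day 7. With BI01 it was 17.4% ± 13.96 at day 7. The share was back at 95.4% ± 0.597, 94.4% ± 1.67 and 94.99% ± 1.33 at day 35 in young mice, old mice and old mice on BI01. An exact two-sided permutation test gave p = 0.0286, the smallest that 4 against 4 allows, for day 7 in young mice, day 7 in old mice and old against young at day 7, and 0.0857 after adjustment over the 9 comparisons. BI01 and vehicle at day 7 differed by 3.38 percentage points (exact p = 0.714). Lengths here are the deposited gene lengths, on which the size of the share depends. In counts without division by length, Rpl3l made up 84.5% to 92.0% in uninjured young libraries and 17.8% to 52.6% at day 7. In old mice it made up 82.3% to 92.5% uninjured, 0.889% to 14.9% at day 7 and 2.52% to 22.1% at day 7 with BI01. In all, the pair reached 194 to 332 CPM per kilobase in uninjured young libraries, 154 to 198 at day 7 and 393 to 405 at day 35.

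Markers of mature fast fibres fell with Rpl3l at day 7, and their part in its change was not tested. Among the uninjured and day 35 groups on vehicle their sum did not follow Rpl3l. Taken singly, the 10 markers had a median log2 change of 0.04 in uninjured old against young mice. At day 35 against uninjured it was 0.06 in young and -0.03 in old mice. In these 3 comparisons 0 of the 10 markers were called in either direction. Their summed level was 305658 ± 34794 CPM (SD, n = 4) in uninjured young mice, 112086 ± 42580 at day 7 in young and 53248 ± 28363 at day 7 in old mice. It was 241838 ± 2625 CPM in uninjured old mice, 243685 ± 23977 at day 35 in young and 230797 ± 28470 at day 35 in old mice. Mean Rpl3l was 393 CPM in uninjured young and 481 in uninjured old mice, and 627 and 656 CPM at day 35. Library 7 of old mice at day 7, with the lowest Rpl3l of all libraries, was also lowest in these markers. Set against them, Rpl3l stood at 0.904 to 1.57 CPM per 1000 CPM of fibre markers in uninjured young mice and at 0.921 to 1.29 at day 7, ranges that overlap. In old mice the ratio was 1.74 to 2.23 uninjured and 0.326 to 0.851 at day 7, with no overlap. At day 35 it was 2.34 to 2.90 in young mice, 2.33 to 3.16 in old mice and 2.30 to 3.37 with BI01, above every uninjured library. This ratio was chosen after the values were seen and has no test. The macrophage markers were at 800 to 1578 CPM in sum at day 7 in young mice and 1133 to 3101 CPM in old mice, and at 24.3 to 171 CPM and 37.1 to 267 CPM uninjured, and their part was not tested either.

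Over the 32 libraries and 9810 protein-coding genes of at least 5 CPM, the genes whose log2 levels were most like Rpl3l were Cs (Pearson r = 0.993), which encodes citrate synthase, Phkg1 (0.991), the catalytic subunit of muscle phosphorylase kinase, Sucla2 (0.990), a subunit of succinyl-CoA ligase, Coq9 (0.988), needed to make coenzyme Q, and Mfn2 (0.988), a mitofusin of the outer mitochondrial membrane. For Rpl3, which was added to this search after its values were seen, the nearest gene was Eef1a1 (r = 0.988), the general form of elongation factor 1A. That factor has a muscle paralog as well. Eef1a1 rose at day 7 by 3.05 in young and 2.81 in old mice (adjusted p = 6.83e-10 and 2.08e-09), while Eef1a2, the form of adult muscle and neurons, fell by 1.05 and 2.24 (adjusted p = 0.00642 and 1.03e-06) and was lower in old than in young mice at day 7 by 1.28 (adjusted p = 0.0362).

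Rps27l, the paralog of Rps27, fell at day 7, from 49.9, 63.9, 29.8 and 61.6 CPM to 16.8, 31.0, 28.5 and 28.9 CPM in young mice and from 69.7, 73.9, 68.2 and 71.5 CPM to 45.1, 28.7, 36.5 and 28.9 CPM in old mice. Old libraries did not overlap, and in young mice 1 library of each group did. The changes were -0.96 (SE 0.20, adjusted p = 1.00e-04) and -1.03 (SE 0.20, adjusted p = 3.61e-05). Scaled to library size alone they were -0.097 and 0.0036, where the median of all genes was 1.05 in young and 1.15 in old mice (0.17 and 0.14 with TMM), so that both lay below that median with either scaling. As a share of Rps27 and Rps27l per length it was 73.1% ± 10.9 uninjured and 51.5% ± 20.1 at day 7 in young mice and 63.7% ± 7.74 and 52.1% ± 20.1 in old mice. The Rps27 row has a near-identical copy in the row of Rps27rt, which this share leaves out, so the share is uncertain. Between BI01 and vehicle at day 7 the estimate for Rps27l was -0.07 (95% interval -0.46 to 0.33). Its values with BI01 were 27.7, 34.4, 35.7 and 35.2 CPM.

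Rpl22l1, a paralog of Rpl22, was at 7.81, 13.8, 4.05 and 13.8 CPM in uninjured young mice and 7.82, 6.66, 4.58 and 3.43 CPM at day 7. The groups overlapped. Its fall of 0.80 (SE 0.33, adjusted p = 0.0354) was lost without library 2 (-0.59, adjusted p = 0.146) or 4 (-0.60, 0.142) of uninjured young mice or library 6 (-0.71, 0.0907) or 7 (-0.70, 0.0779) of day 7, with no filter on low counts (0.0723), limma voom (0.138) or only the groups compared (0.0934), and with library size scaling it was 0.12, below the median of all genes of 1.05. Rpl7l1, a paralog of Rpl7, rose in young mice by 0.49 (adjusted p = 0.00657), from 23.6 to 28.9 CPM up to 33.2 to 39.2 CPM. Rpl7 itself went from 221, 280, 179 and 271 CPM to 384, 375, 361 and 329 CPM, a rise of 0.61 (SE 0.15, adjusted p = 0.000997). Rpl36a, the main gene of its pair, was at 37.9, 42.7, 24.5 and 48.6 CPM in uninjured young mice and at 78.9, 81.9, 76.8 and 79.0 CPM at day 7, without overlap (1.04, SE 0.18, adjusted p = 1.02e-05). Its retrogene Rpl36al stayed below 1 CPM in every library. Rpl39 rose by 0.89 (adjusted p = 0.00774) in young and 0.68 (adjusted p = 0.0319) in old mice, while Rps4x, the X-linked gene for protein S4, rose by 0.71 (adjusted p = 0.00114) and 0.46 (adjusted p = 0.0256). The old values of Rpl39 and Rps4x overlapped uninjured ones.

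At day 7 in young mice 37 members were called higher and 5 lower, of 84 tested. Over all 17121 genes tested 33.3% were called higher and 27.5% lower in this comparison. The median change was 0.42 on the log2 scale over the members and 0.17 over all genes. Without library 3 of uninjured young mice 26 were called higher and 5 lower, with a median of 0.27, against 30.4% and 25.5% of all genes. Of the large subunit 21 of 47 rose and 4 fell, of the small subunit 14 of 33 rose and 1 fell, and of the 3 stalk genes 1 rose. The remaining rise was that of Rps19bp1 (from 2.02 to 4.56 CPM up to 6.20 to 8.61 CPM, 1.15, adjusted p = 0.000216). Day 7 and uninjured libraries did not overlap for 30 members that were higher and 2 that were lower, against 27.2% and 21.9% of all genes, and without library 3 for 30 and 6.

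After Rpl3 the largest rises of ribosomal proteins were those of Rpl41 and Rps12. Rpl41, a very short protein at the interface of the subunits, was at 40.1, 36.9, 9.10 and 56.4 CPM uninjured and 185, 234, 203 and 54.9 CPM at day 7, so that the groups overlapped (2.25, SE 0.72, adjusted p = 0.00918). Rps12 was at 50.8, 65.9, 42.3 and 58.2 CPM uninjured and at 139, 158, 138 and 89.5 CPM at day 7, with no overlap (1.28, SE 0.23, adjusted p = 1.47e-05). Rpsa, a protein of the small subunit also known as the laminin receptor, was at 326, 410, 260 and 380 CPM uninjured and 718, 718, 723 and 652 CPM at day 7 (1.03, SE 0.18, adjusted p = 1.06e-05). It was thus higher in every injured library. Rps6, a small subunit protein that is phosphorylated downstream of mTORC1, was at 163, 201, 98.8 and 180.1 CPM uninjured and 243, 278, 259 and 210.4 CPM at day 7, also without overlap (0.62, SE 0.19, adjusted p = 0.0053). Among the 5 that fell, Rpl24 had the largest change (-3.05, SE 1.07, adjusted p = 0.0149) on a total of 208 counts in all 32 libraries, and its highest level was 1.18 CPM.

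In old mice fewer members passed the test at day 7: 13 were called higher and 3 lower, against 34.4% and 29.8% of all genes. Libraries did not overlap for 7 members that were higher and 3 that were lower, against 29.1% and 27.9% of all genes. Without library 10 of day 7, 22 were higher without overlap, without library 7 of uninjured mice 11, and without library 7 of day 7, 7 were lower. The median change was 0.08 over the members and 0.14 over all genes. After Rpl3 the largest rises were Rpl13a (from 2.96 to 5.34 CPM up to 9.28 to 15.2 CPM, 1.47, adjusted p = 2.33e-05), a low row, and Rpl17 (from 21.0 to 24.9 CPM up to 25.1 to 99.2 CPM, 1.40, adjusted p = 0.00222). The levels of both rows are uncertain, as given above. The pseudogene Rpl17-ps3 averaged 49.7 CPM uninjured and 99.3 at day 7, and Rpl17-ps10 75.6 and 60.4 CPM. The part of reads split between copies was not tested. Rps12 went from 84.7, 108, 73.9 and 91.5 CPM to 191, 163, 153 and 117 CPM (0.80, adjusted p = 0.00244) and Rpsa from 406, 506, 413 and 418 CPM to 802, 723, 615 and 581 CPM (0.64, adjusted p = 0.00225), both without overlap. Besides Rpl3l and Rps27l, Rpl4, a large subunit protein near the exit tunnel, fell by 0.39 (adjusted p = 0.0283), from 729 to 856 CPM down to 543 to 625 CPM. Its call was lost without library 7 of uninjured mice (adjusted p = 0.0833) or library 9 (0.0534) or 10 (0.0671) of day 7, with RLE scaling (0.096), with no filter on low counts (0.0591) or with only the groups compared (0.136). With library size scaling the value for Rpl4 was 0.62, below the median of all genes of 1.15. Rps6 was called higher (0.43, adjusted p = 0.0467), a call that was lost when any of 5 of the 8 libraries was left out (adjusted p up to 0.209, without library 7 of day 7), with no filter on low counts (0.0564), with limma voom (0.0704) or with only the groups compared (0.0852).

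The counts in old mice turned on single libraries. Without library 10 of day 7, 24 members were called higher, and without library 7 or 9 of day 7, 8 and 5 were called lower. The summed level of the members was 18107 CPM in library 7 and 10235.5 CPM in library 10. Library 7 had 237 CPM of Rps7, 385 of Rplp1 and 351 of Rpl41, and library 10 had 136, 122 and 37.7 CPM. With RLE scaling, or with DESeq2, 21 members were called higher in old mice. The share of all genes called in these fits is not given here, so a change particular to the members cannot be told apart. Scaled to library size alone, 74 members were higher and 0 lower in young mice, and 70 were higher and 1 lower in old mice, but with that scaling the median of all genes also moved from 0.17 to 1.05 and from 0.14 to 1.15.

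The response of the members to injury was tested for a difference between the ages. The old change at day 7 lay below the young one on the log2 scale for 70 of 84 members and above it for 14. Over all genes 45.9% lay above it. The median difference of the members was -0.28 (all genes, -0.07). Other protein-coding genes of up to 1000 bases had a median of -0.56, those of 1000 to 2000 bases -0.34, those of 2000 to 4000 bases -0.12 and longer ones 0.04, against -0.21, -0.35, -0.29 and -0.25 for the members. Length here and below is the deposited gene length, which need not be that of the messenger RNA made. The part of length was not tested. Without library 3 of uninjured young mice the median of the members was -0.14. Only 2 members passed the test of the difference, both lower, against 4.48% of all genes called lower and 3.22% called higher. These were Rpl3l and Rps19bp1 (-1.35, SE 0.35, adjusted p = 0.0163), whose levels in old mice were 5.74 to 7.12 CPM uninjured and 4.38 to 6.93 CPM at day 7. The Rps19bp1 difference was no longer called without library 3 of uninjured young mice (adjusted p = 0.0522), scaled to library size alone (0.0595) or with only the groups compared (0.0712). Both comparisons at day 7 have their own uninjured controls, and the young controls include library 3. Compared directly at day 7, old and young mice had Rpl3l alone called, which was 1 member lower and 0 higher, against 2.18% and 0.251% of all genes. The estimates were above 0, thus higher in old mice, for 75 of 84 members (all genes, 53.4%), with a median of 0.23 (all genes, 0.04). At an unadjusted p under 0.05 by edgeR 12 members were higher and 1 lower, against 18.9% of all genes in either direction.

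**Figure D3:**
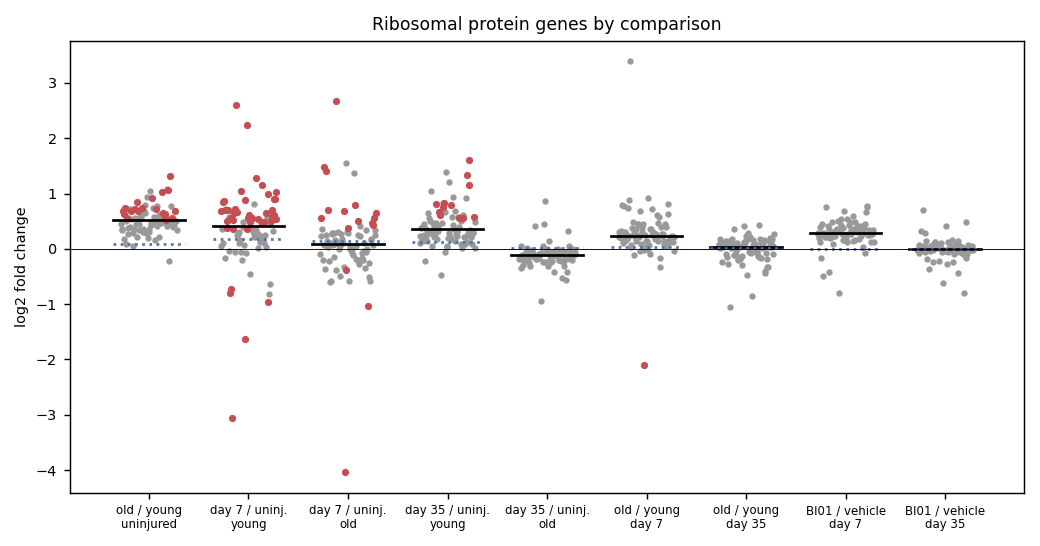
Log2 fold changes of the 84 tested members in the 9 comparisons of 2 groups (group named first over group named second); points are genes, red where the adjusted p was under 0.05, the black bar is the median of the members and the dotted blue bar the median of all genes tested. Medians of the members ran from -0.11 (old mice, day 35 against uninjured) to 0.51 (uninjured, old against young), and the lowest point is Rpl3l in old mice at day 7 (-4.03).

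In uninjured muscle the members stood higher in old than in young mice. Of 84, 20 were called higher and 0 lower, against 5.79% and 7.65% of all genes, and 83 of 84 estimates were above 0. The median was 0.51, and 0.09 over all genes. Old and young libraries did not overlap for 52 members that were higher and 0 that were lower, against 10.5% and 9.32% of all genes, and without library 3 of young mice, or library 7 of old mice, for 54 and 0. Of the large subunit 10 rose and of the small subunit 9. The largest called were Rps28 (1.32, SE 0.43, adjusted p = 0.0376), Rps27a (1.06, SE 0.32, adjusted p = 0.0273) and Rps19bp1 (1.03, SE 0.25, adjusted p = 0.00651). Rps28, a protein of the small subunit, was at 10.1, 19.8, 3.59 and 22.1 CPM in young and 42.2, 43.0, 26.7 and 26.8 CPM in old mice. Rps27a, made as a fusion with ubiquitin, was at 24.8, 23.9, 14.1 and 25.5 CPM in young and 35.5, 86.5, 31.7 and 29.9 CPM in old mice, where library 7 stood apart.

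The number of members called in this age difference rested on few libraries. Without library 3 of uninjured young mice 2 members were called higher, without library 1 of the same group 4, without library 7 of uninjured old mice 4, without library 6 or 8 of that group 11 and 12, and without library 2 or 4 of the young group 32 and 35. With only the groups compared in the fit 4 were called, and with library size scaling 51. The share of all genes called higher in each of these fits is not given here, so a loss particular to the members cannot be told apart. The share of all genes called lower also fell without library 1 or 3 of young mice, as given below. The median stayed between 0.36 and 0.62 as each library was left out. Rpl36a (0.74, adjusted p = 0.00631) and Rps19bp1 kept their call in every setting. Rpl36a was at 67.7, 72.6, 56.7 and 59.2 CPM in uninjured old mice, above all 4 young libraries. Rpl3 and Rpl3l did not pass the test (0.22 and 0.29, adjusted p = 0.613 and 0.727).

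Gene length moved with this difference. Among other protein-coding genes of up to 1000 bases the median was 0.49, at 1000 to 2000 bases 0.33, at 2000 to 4000 bases 0.12 and above 4000 bases -0.04. The members had 0.54, 0.53, 0.46 and 0.57 in the same classes. The classes use the deposited gene length, so their order need not be that of the messenger RNAs. Regenerating fibre markers moved too: 5 of 6 were higher in uninjured old mice, with sums of 65.4 to 99.0 CPM in young and 99.8 to 1211 CPM in old libraries. Without library 7 of old mice, which had the highest of these sums, the median of the members was 0.47. The part of length and of these markers in the age difference was not tested.

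Of the other genes of the ribosome pathway in uninjured muscle, 20 of 45 genes of rRNA synthesis and ribosome assembly were lower in old mice and 0 higher (median -0.40), against 7.65% and 5.79% of all genes. Their summed level was 2996, 1886, 2868 and 1952 CPM in young and 1546, 1595, 1570.2 and 1692 CPM in old mice, so that libraries 1 and 3 stood above the other young ones and the groups did not overlap. Without library 1 of young mice 12 were lower (3.75% of all genes), and without library 3, 15 (3.31%). The smallest p-values were those of Nop14 (-0.99, adjusted p = 0.00019), Wdr43 (-1.28, adjusted p = 0.000234), both of the small subunit processome, and Mybbp1a (-0.83, adjusted p = 0.000458). Of 20 genes of growth signals to ribosome synthesis 10 were lower and 0 higher (median -0.60), with sums of 2704, 1956, 3119 and 2025 CPM in young and 1639, 1686, 1626 and 1589.8 CPM in old mice. Without library 1 of young mice 4 were lower, and 6 without library 3 or without library 6 or 7 of old mice. Among the 10 were Myc (-2.70, adjusted p = 0.000514), which drives ribosome synthesis, and Ddit4 (-3.13, adjusted p = 0.000671), an inhibitor of mTORC1. Myc was at 20.5 ± 17.3 CPM (SD, n = 4) in young and 3.07 ± 2.28 CPM in old mice. Of the 22 translation factors and other genes of terminal oligopyrimidine messenger RNAs 3 were higher, Eef1b2 among them (0.74, adjusted p = 0.00556), and 3 lower, Naca (-1.14, adjusted p = 0.000838) and Pabpc1 (-0.84, adjusted p = 0.0176) among them.

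At day 7 in young mice 0 of the 45 assembly genes were higher and 32 lower (median -0.70), against 33.3% and 27.5% of all genes. The 32 were led by Nop14 (-1.53, adjusted p = 2.52e-09), Tcof1 (-1.18, adjusted p = 1.2e-08), which serves RNA polymerase I, and Mybbp1a (-1.27, adjusted p = 1.71e-08). In old mice 7 were higher and 18 lower (median -0.30), against 34.4% and 29.8% of all genes, and without library 7 of day 7, 4 and 23. Nop14 fell (-1.03, adjusted p = 1.97e-06), and Nop58, a core protein of box C/D particles, rose (0.95, adjusted p = 7.14e-05). The difference between the ages was called for 13 of the 45, all with a higher change in old mice, against 3.22% of all genes. It was called for 6 without library 1 or 3 of uninjured young mice (1.30% and 1.21% of all genes), for 8 without library 7 of old mice at day 7, and for 20 without library 4 of uninjured young mice. Compared directly at day 7, old and young mice had 0 of the 45 called in either direction (median 0.12). Among the 13 were Pes1 (0.86, adjusted p = 0.00454), Wdr43 (1.41, adjusted p = 0.0059) and Utp20 (1.32, adjusted p = 0.00875). Of the 20 growth signal genes 1 was higher and 15 lower in young mice (all genes, 33.3% and 27.5%), and 1 higher and 8 lower in old mice (all genes, 34.4% and 29.8%). The 1 that rose in old mice was Myc (2.15, adjusted p = 0.000262), at 3.07 ± 2.28 CPM (SD, n = 4) uninjured and 14.004 ± 8.47 at day 7. In young mice, at 20.5 ± 17.3 and 9.08 ± 1.66 CPM, its change was -1.18 (adjusted p = 0.0259), and -0.45 (adjusted p = 0.375) without library 1 of uninjured mice. The call was also lost without library 4 (adjusted p = 0.0551) or 6 (0.0663) of day 7. The difference between the 2 changes was 3.33 (adjusted p = 0.00376), while old and young mice at day 7 differed by 0.63 (adjusted p = 0.467). Rheb, the activator of mTORC1, fell in both (-1.56 and -1.34, adjusted p = 9.01e-11 and 1.05e-09), as did Eif4ebp2 (-2.01 and -1.99, adjusted p = 1.11e-10 and 1.06e-10), a translation repressor that mTORC1 inactivates. Of the 12 tested genes for export and chaperoning 0 rose and 7 fell in young mice, and 3 rose and 7 fell in old mice, beside the same shares of all genes. Bccip, a chaperone of Rpl23, fell in both (-1.38 and -1.66). Of the 22 translation factors and other genes of terminal oligopyrimidine messenger RNAs 5 were higher and 8 lower in young mice (median -0.04). In old mice 6 of them were higher and 9 lower (median -0.20). Eef1a1, described above, belongs to this list and was among those higher at both ages.

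**Figure D4:**
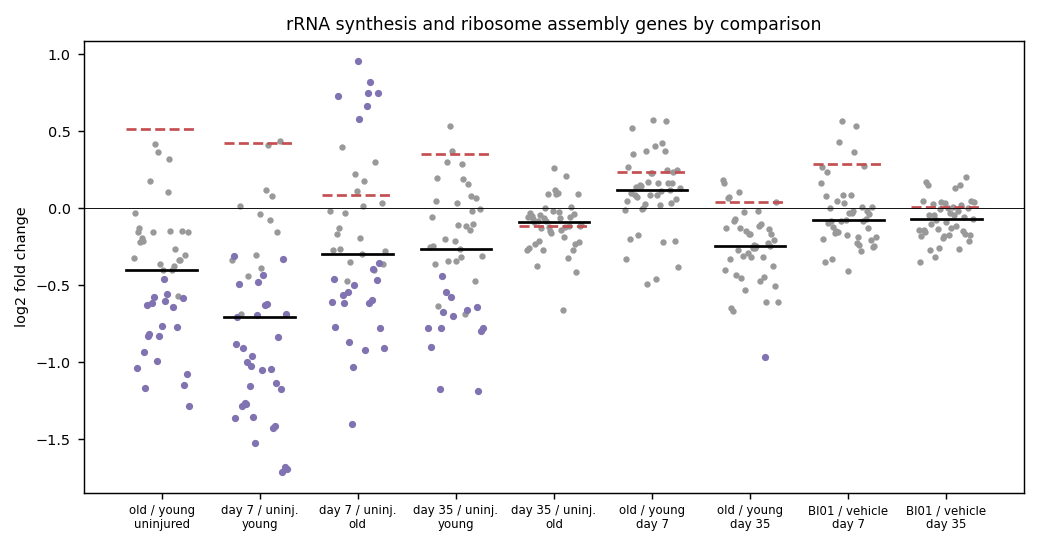
Log2 fold changes of 45 genes of rRNA synthesis and ribosome assembly in the same 9 comparisons; points are genes, violet where the adjusted p was under 0.05, the black bar is their median and the dashed red bar the median of the 84 ribosomal protein genes. In uninjured old against young mice the 2 medians were -0.40 and 0.51, and at day 7 in young mice -0.70 and 0.42.

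At day 35 in old mice no member was called against uninjured muscle, against 5.64% of all genes. By edgeR 2 members, both lower, had an unadjusted p under 0.05, against 17.1% of all genes in either direction. With limma voom and DESeq2 0 were called as well, and the median was -0.11. Libraries did not overlap for 1 member that was higher and 7 that were lower, against 9.39% and 9.98% of all genes, and without library 7 of day 35 for 2 and 25. Fitted on the 2 groups alone, 1 was higher and 5 were lower. In young mice 12 members were called higher and 0 lower, against 7.06% and 8.66% of all genes, with a median of 0.35 (all genes, 0.13). Libraries did not overlap for 12 members that were higher and 0 that were lower, against 11.2% and 8.60% of all genes, and for 12 to 25 that were higher as each library was left out. The count of called members was 1 without library 3 of uninjured young mice, 2 without library 1, 1 without library 4 of day 35 and 7 without library 1 of day 35. The share of all genes called in these fits is not given here, so a loss particular to the members cannot be told apart. The largest were Rps28 (25.96, 31.57, 29.3 and 82.06 CPM at day 35, 1.60, adjusted p = 0.011), Rps27a (34.9, 29.8, 91.3 and 67.3 CPM, 1.34, adjusted p = 0.00535) and Rps29 (52.7, 42.3, 45.5 and 134 CPM, 1.15, adjusted p = 0.0451). In all 3, 1 or 2 libraries were well above the rest. Other protein-coding genes of up to 1000 bases had a median of 0.44 here and those above 4000 bases 0.0046, and the part of length was not tested. The assembly genes were lower for 14 of 45 and higher for 0 in young mice, and for 0 either way in old mice. Without library 3 of uninjured young mice 7 were lower, and without library 1, 9.

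The change to day 35 was lower in old than in young mice for 81 of 84 members (median -0.52; all genes, -0.05), but 0 members and 0 of all 17121 genes passed edgeR's test of this difference (limma voom and DESeq2, 0 members). At an unadjusted p under 0.05 by edgeR there were 19 members, all lower, against 9.87% of all genes in either direction. The 2 changes differ in their uninjured controls, which differed by age as given above. Compared directly at day 35, old and young mice had 0 members called by edgeR, limma voom or DESeq2, against 3.51% of all genes by edgeR. By edgeR 0 members had an unadjusted p under 0.05, against 15.6% of all genes. The estimates had a median of 0.04, and the median half-width of a member's 95% interval was 0.41, which sets the size of difference that could be seen.

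Between BI01 and vehicle 0 ribosomal protein genes were called at either time by edgeR, limma voom or DESeq2, and 0.00% of all 17121 genes by edgeR. At day 7, 79 of 84 estimates were above 0, with a median of 0.29 (all genes, 0.0052). Other protein-coding genes of up to 1000 bases had a median of 0.34, those of 1000 to 2000 bases 0.20, those of 2000 to 4000 bases 0.09 and longer ones -0.08, against 0.41, 0.28, 0.27 and 0.29 for the members, and the part of length was not tested. Of the members 5 had an unadjusted p under 0.05, all higher: Rpl14 (0.45), Rpl37a (0.54), Rpl21 (0.76), Rps15 (0.48) and Rpl36 (0.50), each with an adjusted p of 0.741 (edgeR quasi-likelihood test). Across all genes 6.58% had an unadjusted p under 0.05. The median was 0.13 without library 10 of old vehicle mice at day 7 and 0.42 without library 7. At day 35 the median was 0.0059, with 45 estimates above and 39 below 0. An unadjusted p under 0.05 was found for 0 members, against 3.10% of all genes. The difference of the BI01 effect between the times was called for 0 members by edgeR, limma voom or DESeq2. By edgeR 1 member in each direction had an unadjusted p under 0.05, against 4.82% of all genes in either direction.

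The MDM2-binding members were looked at singly because the title of the series speaks of p53 and MDM2. Rps7 was at 237, 172, 227 and 136 CPM in old vehicle mice at day 7 and at 264, 235, 234 and 200 CPM with BI01, an overlap (0.27, 95% interval -0.09 to 0.63, adjusted p = 0.77). Rpl5 was at 337, 291, 271 and 264 CPM with vehicle and at 349, 387, 295 and 266 CPM with BI01 (0.16, -0.16 to 0.48). Rpl11 was at 183, 119, 161 and 121 CPM and at 158, 174, 166 and 171 CPM (0.19, -0.15 to 0.53). Rpl23 was at 144, 88.2, 138 and 86.2 CPM and at 138, 160, 154 and 153 CPM (0.41, adjusted p = 0.741). Groups overlapped in all 4. At day 35 the 4 differences lay between -0.07 and 0.03. After injury Rps7 rose at day 7 in young mice (0.90, SE 0.18, adjusted p = 6.43e-05) and in old mice (0.56, SE 0.18, adjusted p = 0.0069). Rpl23 rose in young mice (0.56, adjusted p = 0.0168), and the age difference in its change was -0.46 (adjusted p = 0.337). Rpl5 rose in young mice by 0.36 (adjusted p = 0.0476), a call that was lost when any of 6 of the 8 libraries was left out (adjusted p up to 0.207, without library 3 of uninjured young mice).

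**Figure D5:**
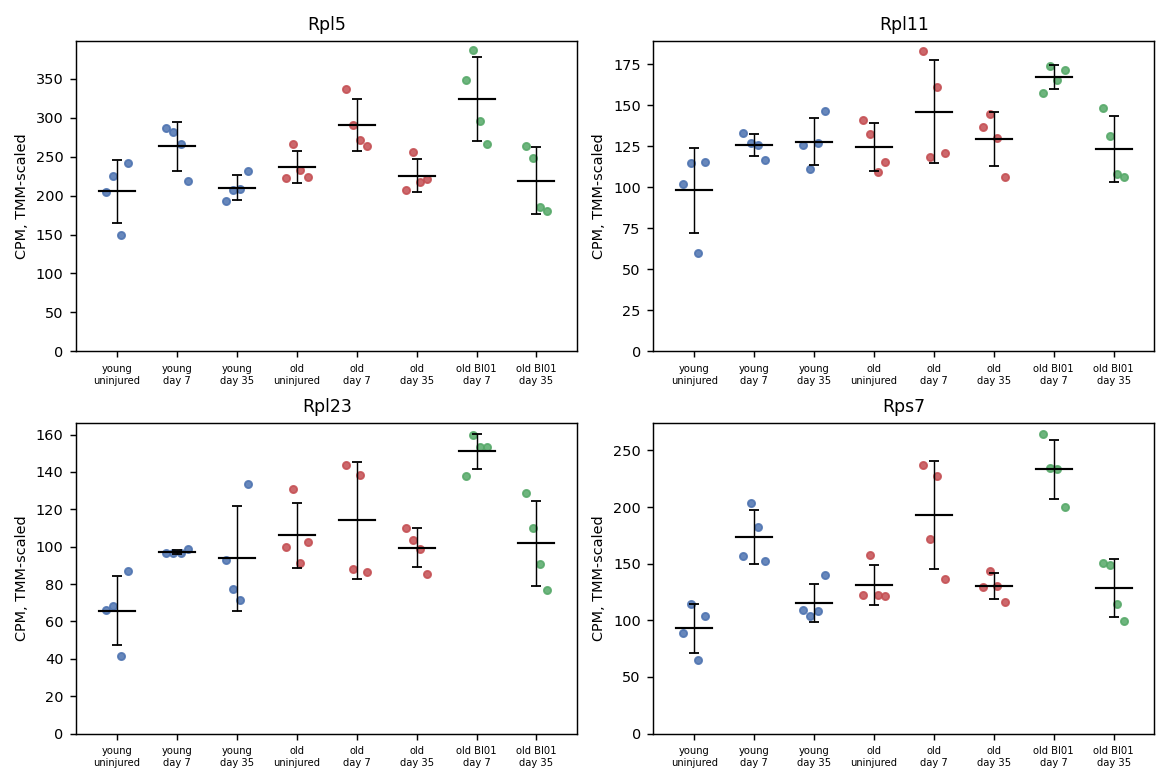
Levels of Rpl5, Rpl11, Rpl23 and Rps7 in every library, in TMM-scaled CPM from 0; horizontal bars are group means and vertical bars ± 1 SD (n = 4), with young vehicle in blue, old vehicle in red and old BI01 in green. Rps7 lay at 64.7 to 114 CPM in uninjured young mice and at 152 to 204 CPM at day 7, and the day 7 groups of old mice with and without BI01 overlap in all 4 genes.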

How the data were processed

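The authors deposited a table of whole-number read counts per gene for 32 libraries. Reads were aligned with HISAT2 to mm10, per the submitters' processing notes. The counting tool, its annotation and its use of strand are not stated in the labels, headers or notes, so reads of near-identical copies may be split between rows. Columns were matched to groups by their headers. Levels are CPM, counts per 1000000 after TMM scaling. The lowest chi-square per degree of freedom between libraries of a group was 11.5, so no library was counted as a repeat.

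Differences were tested with edgeR 4.0.16 (R 4.3.3): quasi-likelihood test, robust, filterByExpr, all 32 libraries in 1 fit, Benjamini-Hochberg adjustment over 17121 genes, called at an adjusted p under 0.05. The standard error is the absolute log2 fold change over the square root of F. The steps were tested on simulated data. RLE scaling, library size alone, DESeq2, limma voom, other filters, fits on the groups compared, leaving out each library and a block by column number were tried. A fixed rule named the paralogs, the stalk, Rpsa, Rps6, Rps19bp1 and the MDM2 binders, the 3 largest called rises and falls per comparison, the 5 genes most alike, and up to 3 genes per pathway list by p. Members and lists were chosen with earlier results of these data known; the ratio of Rpl3l to fibre markers, the likeness to Rpl3 and the sum of Rps27 and Rps27rt were added after values were seen. Transcript starts came from the RefSeq promoter table.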

Additional observations from a re-analysis of the deposited data

Results flagged for a closer look

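Among 280 groups of 4 libraries tested over the named members and the summed measures, 26 had 1 library apart from the other 3 by Dixon's criterion. Chance flags about 1 in 20 groups.

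Library 7 of uninjured old mice stood apart most often. Rpl3 was at 90.0 CPM there against 42.7 to 48.8 in the other 3 libraries, Rps7 at 158 CPM against 122 to 123, and Rpsa at 506 CPM against 406 to 418. Rps27a was at 86.5 CPM against 29.9 to 35.5, and Rpl41, the shortest ribosomal protein, at 151.0 CPM against 34.2 to 51.3. The members' share of counts was 1.26% there against 1.02% to 1.06%, and the Rpl3l share of its pair was 90.0% against 95.2% to 96.0%. Library 8 of that group had 18.4 CPM of Rpl22l1 against 12.8 to 13.2.

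Library 4 of young mice at day 35 was high in Rpl22 (143 CPM against 93.5 to 101.0), Rps7 (140.0 against 104 to 109), Rps28 (82.1 against 26.0 to 31.6) and Rps29 (134 against 42.3 to 52.7). Library 1 of that group was low in Rpl3l, at 615 CPM against 631 to 634. In old mice at day 35, library 7 was high in Rpl3 (111 CPM against 57.6 to 66.6) and Rps4x (282 against 227 to 233), and library 9 was low in Rps29 (34.7 against 59.6 to 62.5) and Rpl24 (0.081 against 0.422 to 0.445).

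In uninjured young mice, library 2 was high in Rps27 (51.8 CPM against 13.8 to 19.0) and Rpl17 (41.6 against 12.8 to 15.001), and library 3 was low in Rps27a (14.1 against 23.9 to 25.5). At day 7, library 7 of young mice had 98.5 CPM of Rpl23 against 96.5 to 96.7 and 652 CPM of Rpsa against 718 to 723. Library 10 of old vehicle mice had 616 CPM of Rplp0 against 812 to 844. With BI01, Rps27l was at 27.7 CPM in library 1 of day 7 against 34.4 to 35.7, Rplp2 at 199 CPM in library 2 against 148 to 155, and Rpl36al at 0.067 CPM in library 8 of day 35 against 0.287 to 0.299.

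The change from uninjured muscle to day 7 differed between old and young mice for 2 members by the interaction term of edgeR's quasi-likelihood test. It was lower in old mice by 2.40 for Rpl3l (the log2 difference was -2.40, adjusted p = 0.0233) and by 1.35 for Rps19bp1 (-1.35, adjusted p = 0.0163).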

How the results depend on the processing

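Of 76 gene results, 38 kept direction and call under every alternative. Of the 48 that were called, 45 kept their direction and 23 their call. The numbers of the table's columns are shared by the uninjured and day 35 libraries of each age, and by vehicle and BI01 at day 35. Deviations from the group mean correlated at -0.032 to 0.16 between same-numbered young libraries, 0.0089 to 0.11 in old mice and -0.10 to 0.034 between vehicle and BI01 (Pearson r over 17121 genes), and 6, 4 and 1 of 8 libraries were closest to their own number. With the column number as a replicate block, a fit added after the data were seen, 15 members were higher and 0 lower at day 35 in young mice (12 and 0 without it), and 0 either way in old mice, in the age difference and with BI01. The groups of the other comparisons do not share all 4 numbers and were not fitted with a block. Leaving out libraries from the list counts was also added after the data were seen.

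With RLE scaling 21 members were called higher in old mice at day 7 and 7 in young mice at day 35. Scaled to library size alone, 51 were higher in uninjured old mice, 74 higher and 0 lower at day 7 in young mice, 70 higher and 1 lower in old mice, 24 higher at day 35 in young mice, 5 higher in old against young mice at day 7, and 1 lower in the age difference of the day 7 change. That scaling moves the median of all genes at day 7 from 0.17 to 1.05 in young and from 0.14 to 1.15 in old mice. Signs changed with it for Rpl22l1 (0.12, young day 7), Rpl4 (0.62) and Rps27l (0.0036, both old day 7), all 3 below that median, for Rps27l with BI01 at day 35 (0.014) and for Rpl3 in the age difference of the day 35 change (-0.033). With no filter on low counts 3 were lower at day 7 in young mice, 7 higher at day 35 in young mice, 0 lower with age at day 7 and 1 lower in its age difference, and Rps27l with BI01 at day 35 was 0.0024. With limma voom 3 were lower at day 7 in young and 7 in old mice, and 1 higher with age at day 7. With DESeq2 21 were higher at day 7 in old mice and 2 with age at day 7. With only the groups compared, 4 were higher in uninjured old mice, 2 lower at day 7 in young mice, 1 higher at day 35 in young mice, 1 higher and 5 lower at day 35 in old mice, 0 lower with age at day 7 and 0 in its age difference. Over nuclear genes alone the members' mean share was 1.27% in uninjured old mice (1.10% of all counts) and 1.22% in old mice at day 35 (1.06%). The cause of these changes was not tested. These counts, and those below as libraries are left out, stand without the share of all genes called in the same fit.

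Leaving out each library in turn gave 2 to 35 members higher in uninjured old mice, 3 to 5 lower at day 7 in young mice, 9 to 24 higher and 2 to 8 lower at day 7 in old mice, 1 to 13 higher at day 35 in young mice, 0 to 5 higher and 0 to 1 lower with age at day 7, and 0 to 4 lower in its age difference. The members' median at day 7 in old mice ranged from -0.035 to 0.22. Rpl3 ranged from -0.10 to 0.33 with age in uninjured mice, from -0.037 to 0.40 and -0.12 to 0.46 in the age differences of the day 7 and day 35 changes, from -0.091 to 0.23 with BI01 at day 7 and from -0.36 to 0.01 at day 35. With BI01 at day 7 Rpl3l ranged from -0.20 to 0.81 and Rps27l from -0.15 to 0.086. At day 35 Rpl5 ranged from -0.14 to 0.046, Rpl23 from -0.10 to 0.15, Rps7 from -0.10 to 0.087 and Rps27l from -0.091 to 0.10. The difference of the BI01 effect between times ranged from -0.87 to 0.13 for Rpl3l. The difference in the Rpl3l share ranged from -0.108 to 2.02 percentage points with age in uninjured mice, from -1.12 to 1.09 at day 35 in old mice, and with BI01 from -2.64 to 7.59 at day 7 and from -0.241 to 1.01 at day 35.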

Other observations

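Rps27rt, a short gene on chromosome 9, shares an identical stretch of 345 bases with a transcript of Rps27 (GENCODE vM39), and the 2 rows were high in different libraries of a group. In uninjured young mice Rps27 was at 13.8, 51.8, 19.0 and 16.7 CPM and Rps27rt at 73.6, 25.01, 21.4 and 64.6 CPM, and their sums were 87.5, 76.8, 40.5 and 81.3 CPM. In old mice at day 35 Rps27 was at 50.9, 69.1, 15.3 and 10.04 CPM, Rps27rt at 43.3, 16.0, 71.3 and 67.3 CPM, and the sums were 94.1, 85.1, 86.5 and 77.3 CPM. The sum varied less than either row in 6 of 8 groups: its coefficient of variation was 8.02% to 47.0%, against 24.98% to 78.2% for Rps27 and 28.3% to 99.4% for Rps27rt. Neither row was called in any comparison of 2 groups, and this was looked at after the values were seen.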
